A study of Rattus norvegicus with 15 samples.

Results

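Advanced pheochromocytomas (advanced PCC, n = 3) were compared with less advanced pheochromocytomas (PCC, n = 2) across 7805 genes in the adrenal medulla of MENX rats. MENX rats are Sprague-Dawley rats that carry a homozygous germline frameshift mutation in *Cdkn1b*, the gene of the cell cycle inhibitor p27, and develop tumours of the adrenal medulla with age. All 5 tumours came from such rats at 7 to 9.5 months of age, and the set also holds medullary tissue of 5 mutant rats with hyperplasia (HYP) at 4 to 5 months and of 5 wild-type (WT) rats at 7 to 9.5 months, which serve here as reference levels only. Samples PCC2, PCC3 and PCC4 are the advanced tumours and PCC1 and PCC5 the less advanced ones. This assignment was taken from the stage that the study prints beside its sample names, where stage follows total adrenal weight; the sample labels themselves give only the pheochromocytoma group.

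The genes are those that the authors had called different between PCC and WT or between PCC and HYP. Of the 8068 genes in the union, 263 on the X and Y chromosomes were left out. The remaining 7805 comprise 7443 genes called against WT and 3235 called against HYP, with 2873 in both sets. A gene that changed from one tumour stage to the next but did not differ between all tumours and the WT or HYP samples is therefore not represented. Genes were listed for a difference of the tumours from WT or HYP, so such differences are given below as a description and not as a test. The reads counted on genes numbered 23831269 in PCC1, 17340695 in PCC2, 18753812 in PCC3, 18595898 in PCC4 and 21140261 in PCC5, and the listed genes held between 50.8 and 54.1% of them. Levels are given as CPM, the counts scaled by these totals and TMM factors, and differences as log2 fold changes of advanced over less advanced PCC with their standard error (SE).

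Chromaffin cells make catecholamines, store them in dense-core granules with granins, and release them by regulated exocytosis. Their tumours are known for several broad expression states, of which the pseudohypoxic one carries high levels of the transcription factor gene *Epas1* and of its targets. Tumour growth is commonly followed with transcripts of the cell division cycle, and the loss of p27 removes a brake on the cyclin-dependent kinases that drive it.

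*Cdkn1b*, the mutated gene itself (ENSRNOG00000007249, chromosome 4 from 168689163 to 168693964 in the Rn06 build), had 189 CPM in PCC1 and 119 CPM in PCC5, and 164, 143 and 180.4 CPM in PCC2, PCC3 and PCC4. The less advanced tumours lay on both sides of the advanced ones, and the log2 fold change was 0.08 (SE 0.27; edgeR adjusted *p* = 0.934). All 5 tumours were above the WT level of 61.6 ± 10.2 CPM (SD, n = 5) and above the HYP mean of 109.8 ± 17.6 CPM (SD, n = 5), although PCC5 was within the HYP range of 88.6 to 137 CPM. The count measures the transcript of the mutated allele, not p27 protein, so it does not test the genotype.

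The labelled tissue was checked against marker genes. *Th*, which encodes the rate-limiting enzyme of catecholamine synthesis, was among the most abundant transcripts, with 16169 and 6196 CPM in PCC1 and PCC5 and 7797, 7548 and 13302 CPM in PCC2, PCC3 and PCC4, against 2420.1 ± 982 CPM (SD, n = 5) in WT. Markers of the adrenal cortex, the steroid-producing tissue that surrounds the medulla and had been removed by macrodissection, were also present and differed strongly between tumours. Taking for each marker its CPM divided by its mean over the 5 tumours, the median over 14 cortex markers was 1.31 in PCC1 and 1.85 in PCC5, and 0.344 in PCC2, 1.25 in PCC3 and 0.129 in PCC4. Thus PCC2 and PCC4 held little cortex signal, whereas PCC3 was close to the less advanced tumours.

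*Cyp21a1*, the steroid 21-hydroxylase and the most abundant cortex marker, showed the same order, with 5555 and 5686 CPM in PCC1 and PCC5 and 1025, 3818 and 322 CPM in PCC2, PCC3 and PCC4. Summed over the 14 markers, the level was 21162 and 25600.3 CPM in PCC1 and PCC5 and 6044, 18730 and 6135 CPM in PCC2, PCC3 and PCC4. None of the markers was at 0 in a tumour. In total 13 of the 14 markers had a lower fitted level in advanced PCC (median log2 fold change -1.44), 1 of them at an unadjusted *p* under 0.05, and 8 did not overlap between the stages, where 3.84 and 14.8% of all genes tested did so in that direction. Without PCC3 the median was -2.79 and 13 of 14 markers were under that threshold, as were 712 of all 7239 genes on the lower side. Fewer cortex cells in the tissue and less RNA per cell cannot be told apart in bulk tissue, and the part of the cortex signal in the results below was not tested.

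Enough counts for testing were found in 7239 genes, and 0 of them (0%) passed an adjusted *p* of 0.05 in edgeR, where the smallest value was 0.582. At an unadjusted *p* under 0.05, 297 genes (4.1%) were higher and 278 (3.84%) lower in advanced PCC. DESeq2, run on the same counts, placed 32 genes above and 12 below in advanced PCC at an adjusted *p* under 0.05. All 44 of them had an unadjusted *p* under 0.05 in edgeR as well. In all 44 the stages did not overlap, where 14% of all genes tested did so on the higher and 14.8% on the lower side. Both tests used the same counts, and a small *p* favours stages without overlap, so neither is further support for these genes. The statements on single genes and groups that follow are therefore effect sizes and spreads, not calls.

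The log2 fold changes had a median of -0.00, and the middle 50% of genes lay between -0.36 and 0.37. The outer 1% limits were -1.86 and 2.21. A difference of at least 2-fold was fitted for 1030 genes (14.2%), of which 500 were higher and 530 lower in advanced PCC, against a median SE of 0.37. In 1014 genes (14%) all 3 advanced tumours were above both less advanced ones, and in 1068 genes (14.8%) all 3 were below. The spread was wider for weakly expressed genes, with quartiles of -0.49 and 0.63 in the least abundant 2413 genes and -0.31 and 0.25 in the most abundant 2413.

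**Figure D1:**
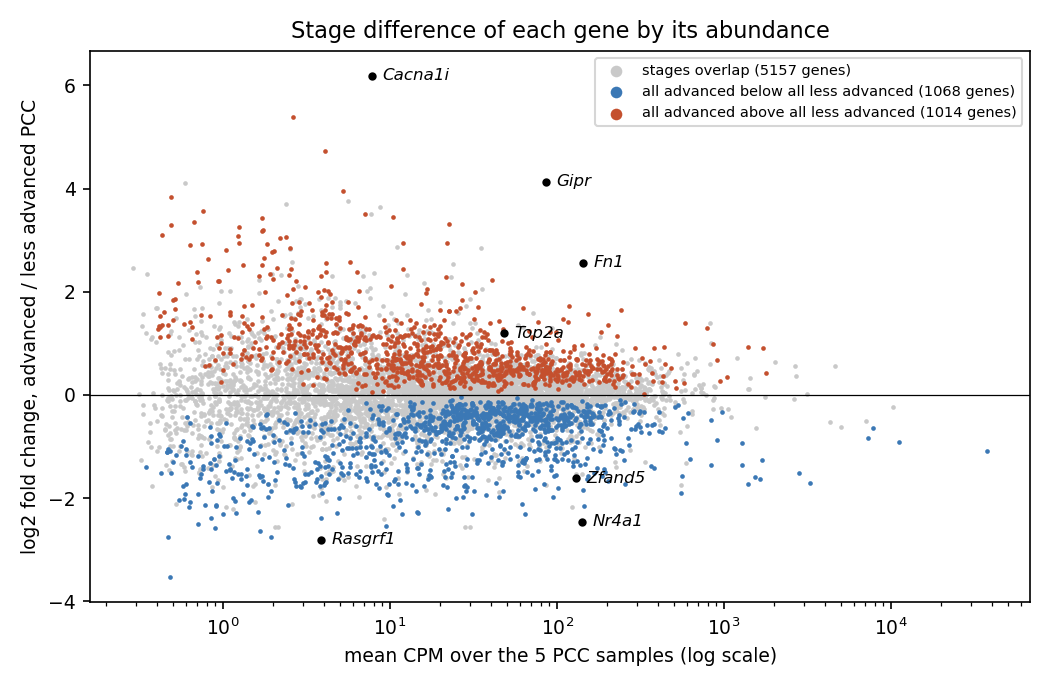
Log2 fold change of advanced over less advanced PCC against mean CPM over the 5 tumours (log scale) for 7239 genes, 1 point per gene. The 1014 genes with every advanced tumour above both less advanced ones are red, the 1068 with every advanced tumour below are blue, and the remaining 5157 are grey; 7 genes are marked in black by name.

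The position of zero differed between some of the scalings. With the recovered totals of reads instead of TMM, log2 fold changes moved up by a median of 0.20, and the genes at an unadjusted *p* under 0.05 became 594 higher and 104 lower, or 85.1% higher against 51.7% with TMM. The deposited FPKM, tested with limma on log2(FPKM + 0.5) and so with another test and transformation too, gave 79.2% higher and a shift of 0.19. The authors' size factors gave 342 higher and 244 lower (58.4% higher, shift 0.04), and DESeq2 53.8% higher with a shift of 0.01. Leaving out single tumours changed the counts as well. Without PCC3 they were 372 higher and 712 lower, without PCC1 151 and 265, without PCC2 225 and 91, and without PCC4 201 and 150, whereas without PCC5 they were 297 and 225.

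The tumours differed within the stages as well as between them. Over 6855 genes whose average reached 1 CPM, stage accounted for 35.3% of the sum of squares of log2 CPM, where 1 of the 4 degrees of freedom would give 25% if all were alike. PCC3, an advanced tumour, was nearest to both less advanced tumours, with a correlation across genes of 0.961 with PCC1 and 0.963 with PCC5, against 0.946 with PCC2 and 0.916 with PCC4. The mean correlation was 0.935 over the 4 pairs within a stage and 0.919 over the 6 pairs across stages, and the ranges of 0.916 to 0.946 and 0.867 to 0.963 overlapped. On the leading component (54.2% of the variance) PCC5, PCC1 and PCC3 had scores of -34.7, -24.2 and -12.7, and PCC2 and PCC4 of 18.5 and 53.1, so that the stages did not overlap on it, with PCC3 nearer to the less advanced tumours than to PCC2. PCC4 stood furthest apart: in 434 genes it was above or below every other tumour by at least 2-fold, against 132 genes for PCC5, 120 for PCC1, 106 for PCC2 and 10 for PCC3.

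Genes of cell division had higher levels in advanced PCC as a group. Of 43 genes of the cell cycle and mitosis, 36 had a higher fitted level, 20 of them at an unadjusted *p* under 0.05, and in 30 the stages did not overlap, where 4.1 and 14% of all genes tested did so in that direction. Their median log2 fold change was 0.98, against -0.00 over all genes. The level of the group was 0.636 in PCC1 and 0.614 in PCC5, and 1.44 in PCC2, 0.884 in PCC3 and 1.31 in PCC4, so that PCC3 was the lowest advanced tumour but still above both others. WT tissue had a level of 0.114 ± 0.0259 (SD, n = 5) and HYP tissue 0.399 ± 0.0698 (SD, n = 5) over the 37 members measured in all samples.

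*Mki67*, which encodes the proliferation antigen Ki-67 (chromosome 1 from 207993895 to 208020454), had 38.5 and 24.7 CPM in PCC1 and PCC5 and 70.9, 52.9 and 66.6 CPM in PCC2, PCC3 and PCC4. The stages did not overlap, with means of 63.5 ± 9.42 CPM (SD, n = 3) and 31.6 ± 9.79 CPM (SD, n = 2) and a log2 fold change of 1.01 (SE 0.29; edgeR adjusted *p* = 0.582). An exact permutation test over the 10 assignments of the tumours to 3 and 2 gave *p* = 0.1, the smallest value it can give. *Top2a*, the topoisomerase that untangles chromosomes before division, had 26.7 and 27.5 CPM in PCC1 and PCC5 and 69.7, 42.5 and 74.0 CPM in PCC2, PCC3 and PCC4. *Cenpf*, a kinetochore protein, had 9.43 and 11.4 CPM in the less advanced tumours and 31.0, 18.0 and 29.2 CPM in the advanced ones. In both genes PCC3 lay between the less advanced tumours and the other advanced ones.

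The log2 fold changes were 1.20 (SE 0.30) for *Top2a*, 1.33 (SE 0.35) for *Cenpf* and 1.39 (SE 0.38) for *Anln*, which encodes the contractile ring protein anillin. The transcription factor *E2f1* had the largest value of the group, 1.62 (SE 0.64), to which PCC4 contributed most with 56.9 CPM against 17.2 and 17.9 CPM in PCC2 and PCC3. Among the 7 members with a lower fitted level, the kinase gene *Aurka* was the only one without overlap (-0.43, SE 0.27), with 18.5 and 20.6 CPM in PCC1 and PCC5 and 15.3, 14.6 and 13.5 CPM in PCC2, PCC3 and PCC4. The number of members at an unadjusted *p* under 0.05 was sensitive to single tumours, with 8 without PCC2, 24 without PCC3 and 12 without PCC4. Of all 7239 genes, 225, 372 and 201 were higher at that threshold in these fits. With PCC1 or PCC5 left out, 1 less advanced tumour remained, so only the median is given, 1.00 in both. Between 36 and 37 members had a higher fitted level each time a tumour was left out.

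Genes of DNA replication and repair had the same direction with smaller differences. Of 36 genes, 33 had a higher fitted level (median 0.54), and in 19 the stages did not overlap (14% of all genes in that direction). An unadjusted *p* under 0.05 was reached by 3 (4.1% of all genes), by 10 with the recovered totals and by 0 without PCC2. *Mcm5*, a subunit of the replicative helicase, had 12.7 and 16.3 CPM in PCC1 and PCC5 and 46.7, 21.6 and 25.8 CPM in PCC2, PCC3 and PCC4 (log2 fold change 1.11, SE 0.40). *Pcna*, the sliding clamp of DNA polymerase, stayed within its spread, with 64.2 ± 9.01 CPM (SD, n = 3) in advanced and 64.1 ± 1.48 CPM (SD, n = 2) in less advanced PCC. Of the 10 inhibitors of the cell cycle, 5 had a higher and 5 a lower fitted level. *Cdkn1c*, which encodes p57, the closest relative of p27, was lower in advanced PCC, with 44.6 and 118 CPM in PCC1 and PCC5 and 22.1, 28.2 and 11.5 CPM in PCC2, PCC3 and PCC4 (-1.98, SE 0.51). *Cdkn2a*, the locus of p16 and p19Arf, had the opposite direction (0.93, SE 0.40), with 7.44 and 14.9 CPM against 19.7, 17.9 and 26.4 CPM in the same order.

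Promoters of mitotic genes often carry the cell cycle homology region TTTGAA near the transcription start together with CCAAT boxes, the site of NF-Y. Of the 43 genes of the cell cycle and mitosis, 36 had a higher and 7 a lower fitted level. Promoters of this list were searched for both motifs on both strands in the RefSeq table of the GRCr8 build. It holds 300 bases from upstream of each start into the gene and matched 31 of the 43 genes by symbol. These 31 were not split by the direction of their fitted level. TTTGAA or its complement was found in 21 of the 31 (67.7%) and in 18.3% of all 33469 promoters, CCAAT or its complement in 22 (71.0%) and in 37.5%, and both in 16 (51.6%) and in 7.41%. A match is a description of the letters and not a measured binding site. The promoters of *Mki67*, *Top2a* and *Cenpf* are shown 5′ to 3′ with both motifs in capitals; in *Mki67* a TTTGAA and a reverse CCAAT share a base.
Mki67, chr1:199952544-199952843, minus strand: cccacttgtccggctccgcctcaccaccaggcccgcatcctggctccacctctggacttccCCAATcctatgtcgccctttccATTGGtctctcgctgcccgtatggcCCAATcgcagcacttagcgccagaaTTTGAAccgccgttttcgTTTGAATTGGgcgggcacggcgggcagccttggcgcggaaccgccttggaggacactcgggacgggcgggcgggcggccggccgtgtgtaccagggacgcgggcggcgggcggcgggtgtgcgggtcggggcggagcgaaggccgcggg
Top2a, chr10:84473044-84473343, minus strand: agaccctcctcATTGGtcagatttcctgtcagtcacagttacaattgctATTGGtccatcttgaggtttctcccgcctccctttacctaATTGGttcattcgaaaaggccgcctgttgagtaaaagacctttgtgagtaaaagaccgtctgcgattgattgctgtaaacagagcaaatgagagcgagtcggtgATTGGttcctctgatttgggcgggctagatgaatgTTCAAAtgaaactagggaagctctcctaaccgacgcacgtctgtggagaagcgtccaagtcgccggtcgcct
Cenpf, chr13:103760837-103761136, minus strand: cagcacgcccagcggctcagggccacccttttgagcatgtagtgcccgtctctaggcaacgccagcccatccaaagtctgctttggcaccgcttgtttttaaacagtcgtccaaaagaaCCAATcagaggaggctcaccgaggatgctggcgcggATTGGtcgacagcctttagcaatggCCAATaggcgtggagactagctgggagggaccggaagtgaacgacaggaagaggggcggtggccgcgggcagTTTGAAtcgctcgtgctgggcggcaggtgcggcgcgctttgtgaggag

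**Figure D2:**
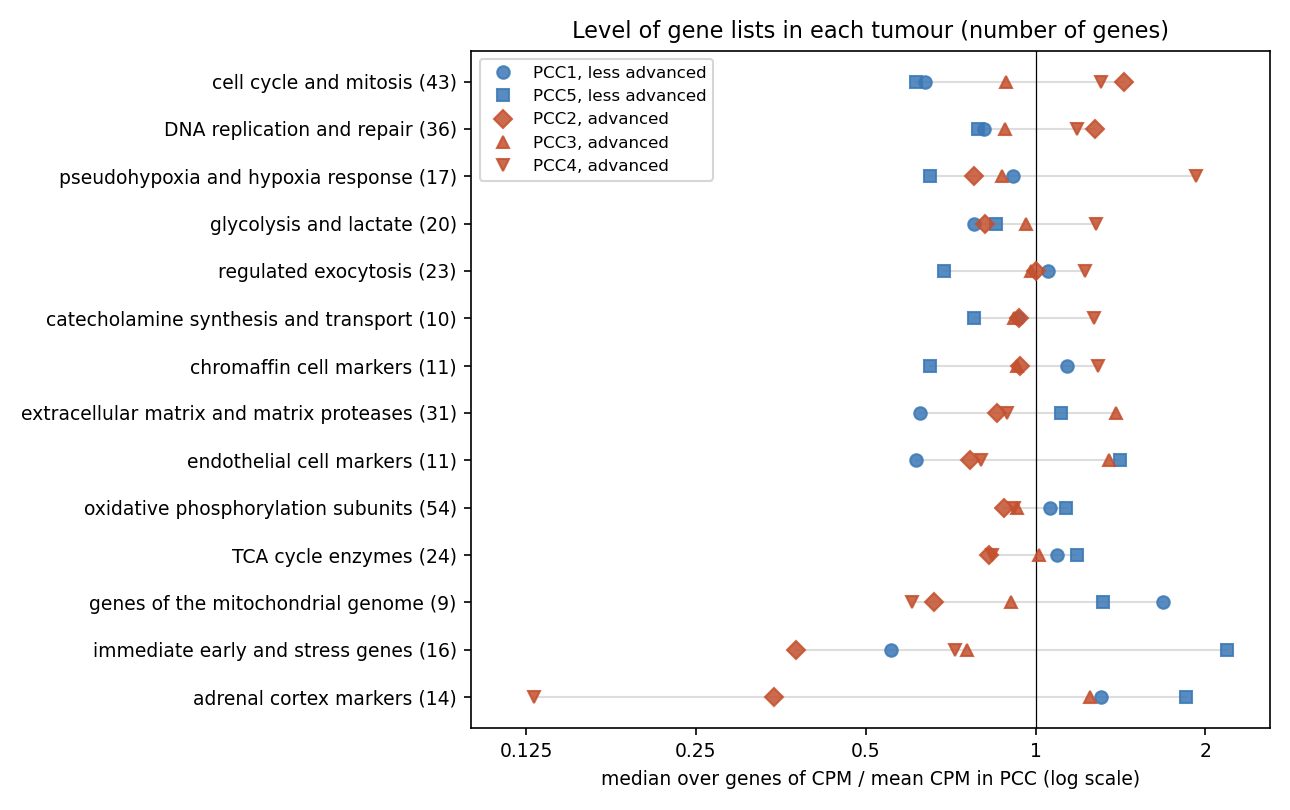
Level of 14 gene lists in each tumour, as the median over the genes of CPM divided by the gene's mean over the 5 tumours (log scale), with 1 symbol per tumour and the number of genes in brackets. The advanced tumours (red) lie above the less advanced ones (blue) for cell cycle and mitosis, 0.884 to 1.44 against 0.614 and 0.636, while adrenal cortex markers range from 0.129 in PCC4 to 1.85 in PCC5 and PCC3 lies beside the less advanced tumours.

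Mitochondrial transcripts were lower in advanced PCC. All 9 listed genes of the mitochondrial genome had a lower fitted level, with log2 fold changes from -0.65 to -1.27. In all 9 the stages did not overlap, where 14.8% of all genes tested did so in that direction. An unadjusted *p* under 0.05 was reached by 7, against 3.84% of all genes. This number was 3 without PCC2, 5 without PCC3 and 4 without PCC4, where 91, 712 and 150 of all 7239 genes were lower at that threshold. It was 3 with the recovered totals (104 of all genes) and 3 with limma on the deposited FPKM (149). With at least 10 counts in every sample it was 4 (269 of 6695 genes), with the authors' size factors 5 (244) and in DESeq2 9 (373). Without PCC1 or PCC5, where 1 less advanced tumour remained, the median was -0.86 and -1.19. All 9 were lower each time. These 9 genes held 8.71% of the reads of PCC1 and 8.59% of those of PCC5, and 4.77, 6.29 and 4.19% of those of PCC2, PCC3 and PCC4. *Mt-co1*, a catalytic subunit of cytochrome c oxidase and the most abundant of them, had 63217 and 46980.4 CPM in PCC1 and PCC5 and 23274, 33912 and 20282 CPM in PCC2, PCC3 and PCC4. *Mt-nd3*, a subunit of complex I, had 1100.4 and 827 CPM against 387, 443 and 388 CPM (-1.25, SE 0.26). WT tissue had 74088 ± 30772 CPM (SD, n = 5) for *Mt-co1* and 1055 ± 241 CPM (SD, n = 5) for *Mt-nd3*.

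The nuclear genes of oxidative phosphorylation had the same direction with small differences. Of 54 subunits, 49 had a lower fitted level (median log2 fold change -0.26), and in 21 all advanced tumours were below both others, against 14.8% of all genes. An unadjusted *p* under 0.05 was reached by 4 on the lower side, against 3.84% of all genes, and by 0 with the recovered totals. The group level was 1.06 and 1.13 in PCC1 and PCC5 and 0.877, 0.927 and 0.916 in PCC2, PCC3 and PCC4. This direction is partly a matter of scaling: with the recovered totals 32 of 54 had a lower and 22 a higher fitted level (median -0.07), and with the deposited FPKM 30 and 24, whereas relative to the median of all genes the group stayed at -0.28 and -0.23. WT tissue, with its high cortex level of 5.39 ± 2.08 (SD, n = 5), had a group level of 1.71 ± 0.154 (SD, n = 5).

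Enzymes of the TCA cycle and its entry points resembled them, with 21 of 24 at a lower fitted level (median -0.37) and 11 with no overlap, against 14.8% of all genes. Of the 24, 4 were lower at an unadjusted *p* under 0.05, against 3.84% of all genes, and 0 with the recovered totals. *Suclg2* and *Sucla2*, subunits of succinyl-CoA synthetase, had log2 fold changes of -0.88 (SE 0.31) and -0.58 (SE 0.21). *Suclg2* had 101 and 93.1 CPM in PCC1 and PCC5 and 37.4, 72.9 and 47.5 CPM in PCC2, PCC3 and PCC4. *Sdha* and *Sdhb*, subunits of succinate dehydrogenase, the enzyme lost in a hereditary form of pheochromocytoma, had values of -0.67 (SE 0.29) and -0.40 (SE 0.21), and neither overlapped between the stages. With the recovered totals 17 of 24 enzymes had a lower fitted level (median -0.17). *Pc*, pyruvate carboxylase, went the other way (0.60, SE 0.44), with 1431 CPM in PCC4 against 499 to 864 CPM in the other tumours.

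The group level of genes of the pseudohypoxic state was highest in PCC4. Of 17 genes, 14 had a higher fitted level in advanced PCC (median 0.57), and 0 had an unadjusted *p* under 0.05 in edgeR, where 4.1 and 3.84% of all genes did (0 adjusted). In 4 all advanced tumours were above both others and in 0 below, where the shares of all genes were 14 and 14.8%. The group level was 1.92 in PCC4 against 0.777 in PCC2 and 0.872 in PCC3, which lay between the 0.911 of PCC1 and the 0.650 of PCC5. Without PCC4 the median was 0.06, and 11 of 17 had a higher fitted level. *Vegfa*, the main angiogenic growth factor, had 861 and 955 CPM in PCC1 and PCC5, 975 and 1071 CPM in PCC2 and PCC3, and 3126 CPM in PCC4. The stages did not overlap (0.92, SE 0.57), but PCC2 was only just above PCC5, and the exact permutation test gave *p* = 0.5. WT tissue had 949 ± 146 CPM (SD, n = 5), from 807 to 1143 CPM, so that only PCC4 was above the WT range. *Epas1*, which encodes HIF2α, had 4177 and 3017 CPM in PCC1 and PCC5 and 3603, 5209.7 and 7188 CPM in PCC2, PCC3 and PCC4, so that the stages overlapped (0.57, SE 0.42). All 5 tumours were far above the 355 ± 119.9 CPM (SD, n = 5) of WT tissue, which is no test because genes were listed for such differences.

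*Ndufa4l2*, a hypoxia-induced mitochondrial protein, had 501 and 574 CPM in PCC1 and PCC5 and 816, 748 and 1648 CPM in PCC2, PCC3 and PCC4 and did not overlap (0.99, SE 0.42). *Trib2*, a pseudokinase, overlapped (0.32, SE 0.34). The vascular genes *Angpt2* and *Cd34*, an angiopoietin and an endothelial surface antigen, had values of -0.21 (SE 0.71) and 0.64 (SE 0.60), and *Angpt2* ranged from 59.1 CPM in PCC4 to 419.9 CPM in PCC2, both advanced; its sign turned with the recovered totals (0.02). Endothelial markers as a group had no clear direction (4 of 11 higher, median -0.12, but 8 of 11 with the deposited FPKM and 6 of 11 with the recovered totals). Of 20 genes of glycolysis and lactate, 15 had a higher fitted level (median 0.49, and 0.19 without PCC4), and PCC4 was again the highest with a level of 1.28 against 0.778 to 0.960 in the other tumours. *Ldha*, lactate dehydrogenase A, had 982 CPM in PCC4 and between 279.7 and 342 CPM in the others, whereas *Gapdh* was similar in both stages (0.07, SE 0.27).

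Genes of the chromaffin programme had values in both directions. Of 10 genes of catecholamine synthesis and transport, 6 had a higher and 4 a lower fitted level (median 0.12). None had an unadjusted *p* under 0.05 in edgeR, a threshold that 4.1% of all genes passed on the higher and 3.84% on the lower side, so that few would be reached among 10. *Dbh*, dopamine beta-hydroxylase, had 10214 and 6870.4 CPM in PCC1 and PCC5 and 7123, 6527 and 4468 CPM in PCC2, PCC3 and PCC4 (-0.50, SE 0.39). The vesicular monoamine transporter genes *Slc18a1* and *Slc18a2* had values of 0.12 (SE 0.50) and 0.68 (SE 0.50), with the highest level of both in PCC4. *Pnmt*, which the study also followed, is outside the tables used and was not analysed here. Among the transcription factors, *Hand2* was higher in every advanced tumour (0.91, SE 0.39), with 71.0 and 153 CPM in PCC1 and PCC5 and 193, 174 and 266 CPM in PCC2, PCC3 and PCC4.

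*Hoxd9*, a homeobox gene, was lower (-1.72, SE 0.46), with 6.44 and 7.52 CPM against 1.64, 2.98 and 1.74 CPM. Over all 13 factors the median was 0.04. Of 23 genes of regulated exocytosis 20 had a higher fitted level (median 0.39), 1 at an unadjusted *p* under 0.05 (*Sv2a*, a synaptic vesicle glycoprotein), and 3 did not overlap, which is close to the 4.1 and 14% of all genes. PCC5 had the lowest level, 0.687, and without it the median was 0.10. The 7 granin and peptide genes had a median of -0.27, which was 0.70 without PCC1 and 0.14 with the deposited FPKM. *Gal*, the neuropeptide galanin, was lower in advanced PCC (-1.77, SE 0.61), with 60.3 and 35.5 CPM in PCC1 and PCC5 and 5.99, 26.2 and 9.91 CPM in PCC2, PCC3 and PCC4.

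The gene with the smallest *p* of all 7239 was *Fn1*, which encodes the matrix protein fibronectin (ENSRNOG00000014288, chromosome 9 from 78900103 to 78969078). It had 45.7 and 27.4 CPM in PCC1 and PCC5 and 210.04, 258 and 178 CPM in PCC2, PCC3 and PCC4. The advanced tumours were thus 5.90-fold above the less advanced ones on average, including PCC3, and far from overlapping them (log2 fold change 2.56, SE 0.34; edgeR adjusted *p* = 0.582, DESeq2 adjusted *p* = 4.89e-09). WT and HYP tissue had 15.0 ± 6.32 and 24.5 ± 5.16 CPM (SD, n = 5 each). *Sulf1*, an enzyme that removes sulphate groups from heparan sulphate outside the cell, had 2.89 and 5.82 CPM against 50.1, 16.9 and 33.3 CPM in the same order (2.94, SE 0.59). *Mmp12*, a macrophage elastase, had 4.29 and 2.51 CPM against 17.9, 10.1 and 16.0 CPM (2.11, SE 0.46), and *Vtn*, the adhesion protein vitronectin, a value of 2.31 (SE 0.59).

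Of *Fn1*, *Sulf1*, *Mmp12* and *Vtn*, only *Fn1* was in the list of the extracellular matrix and its proteases. Of its 31 genes 20 had a higher and 11 a lower fitted level (median 0.18), 4 and 1 at an unadjusted *p* under 0.05, and 6 and 2 did not overlap, where the shares of all genes were 4.1 and 3.84% and 14 and 14.8%. The split changed with single tumours, with 13 higher and 18 lower without PCC1, 14 and 17 without PCC3, and a median of 0.80 without PCC5. *Postn* (1.49, SE 0.50), *Col6a3* (1.01, SE 0.41) and *Thbs1* (0.79, SE 0.26), which encode periostin, a chain of collagen VI and thrombospondin-1, were the other 3 on the higher side at an unadjusted *p* under 0.05. Decorin (*Dcn*), the most abundant member, was lower in advanced PCC, with 818 and 401 CPM in PCC1 and PCC5 and 266, 331 and 83.3 CPM in PCC2, PCC3 and PCC4 (-1.43, SE 0.59).

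*Igsf9* and *Csmd2* also had large differences and no overlap. *Igsf9*, an immunoglobulin-type adhesion protein of neurons, had 47.1 and 58.9 CPM in PCC1 and PCC5 and 158, 151 and 129 CPM in PCC2, PCC3 and PCC4 (1.46, SE 0.24). *Csmd2*, a membrane protein with CUB and sushi domains, had 12.2 and 8.61 CPM against 24.5, 25.8 and 25.2 CPM (1.28, SE 0.29). Both were chosen for a small *p* in these same tumours. That choice favours genes in which the advanced tumours are close to each other and PCC3 lies with its stage.

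Among the genes chosen for size, those on the higher side were mostly weakly expressed. *Cacna1i*, a T-type calcium channel, had 0.172 ± 0.110 CPM (SD, n = 2) in less advanced PCC, at most 5 counts, and 12.9 ± 13.4 CPM (SD, n = 3) in advanced PCC, from 1.54 CPM in PCC2 to 27.6 CPM in PCC4 (6.18, SE 1.46). *Trpm1*, a cation channel, had 0.539 ± 0.227 CPM (SD, n = 2) against 8.35 ± 5.82 CPM (SD, n = 3), with the highest level, 14.2 CPM, in PCC3 (3.94, SE 0.88). The values were 3.43 (SE 0.82) for *Iqca1*, 2.93 (SE 0.62) for the complement gene *C9*, 2.85 (SE 0.61) for *Susd5*, 2.82 (SE 0.74) for *Ubxn10*, 2.55 (SE 0.64) for the kinase gene *Mapk4*, 2.29 (SE 0.57) for *Dlec1* and 2.24 (SE 0.60) for *Gli2*, a transcription factor of hedgehog signalling.

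On the lower side, *Zfand5*, a zinc finger protein that binds the proteasome, had the smallest *p*, with 231 and 208 CPM in PCC1 and PCC5 and 59.3, 92.0 and 63.2 CPM in PCC2, PCC3 and PCC4 (-1.62, SE 0.26). *Alas1*, the rate-limiting enzyme of haem synthesis, had 245 and 437 CPM against 100.4, 138 and 81.0 CPM (-1.68, SE 0.35), and *Sars2*, the mitochondrial seryl-tRNA synthetase, 96.4 and 99.8 CPM against 37.2, 51.7 and 29.6 CPM (-1.31, SE 0.28). In WT tissue *Alas1* had 1872 ± 260.3 CPM, *Zfand5* 352 ± 89.4 CPM and *Sars2* 258 ± 204.2 CPM (SD, n = 5 each), the last from 95.1 to 557.9 CPM. The remaining genes chosen for size were *Rasgrf1* (-2.81, SE 0.71), *Hhex* (-2.32, SE 0.64), the chemokine gene *Ccl11* (-2.30, SE 0.61), *Vsnl1* (-2.29, SE 0.61), *Fam110c* (-2.28, SE 0.61), *Zfp347* (-2.16, SE 0.53), *Gstt2* (-1.94, SE 0.48) and *Arhgap18* (-1.78, SE 0.46). *Gem* (-1.44, SE 0.35) and *Itgbl1* (-1.41, SE 0.32) completed those of smallest *p*. Of these 10, *Itgbl1* and *Ccl11* were below their less advanced level in WT tissue, with 5.10 ± 2.32 and 6.96 ± 3.58 CPM (SD, n = 5 each), and the other 8 above it.

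**Figure D3:**
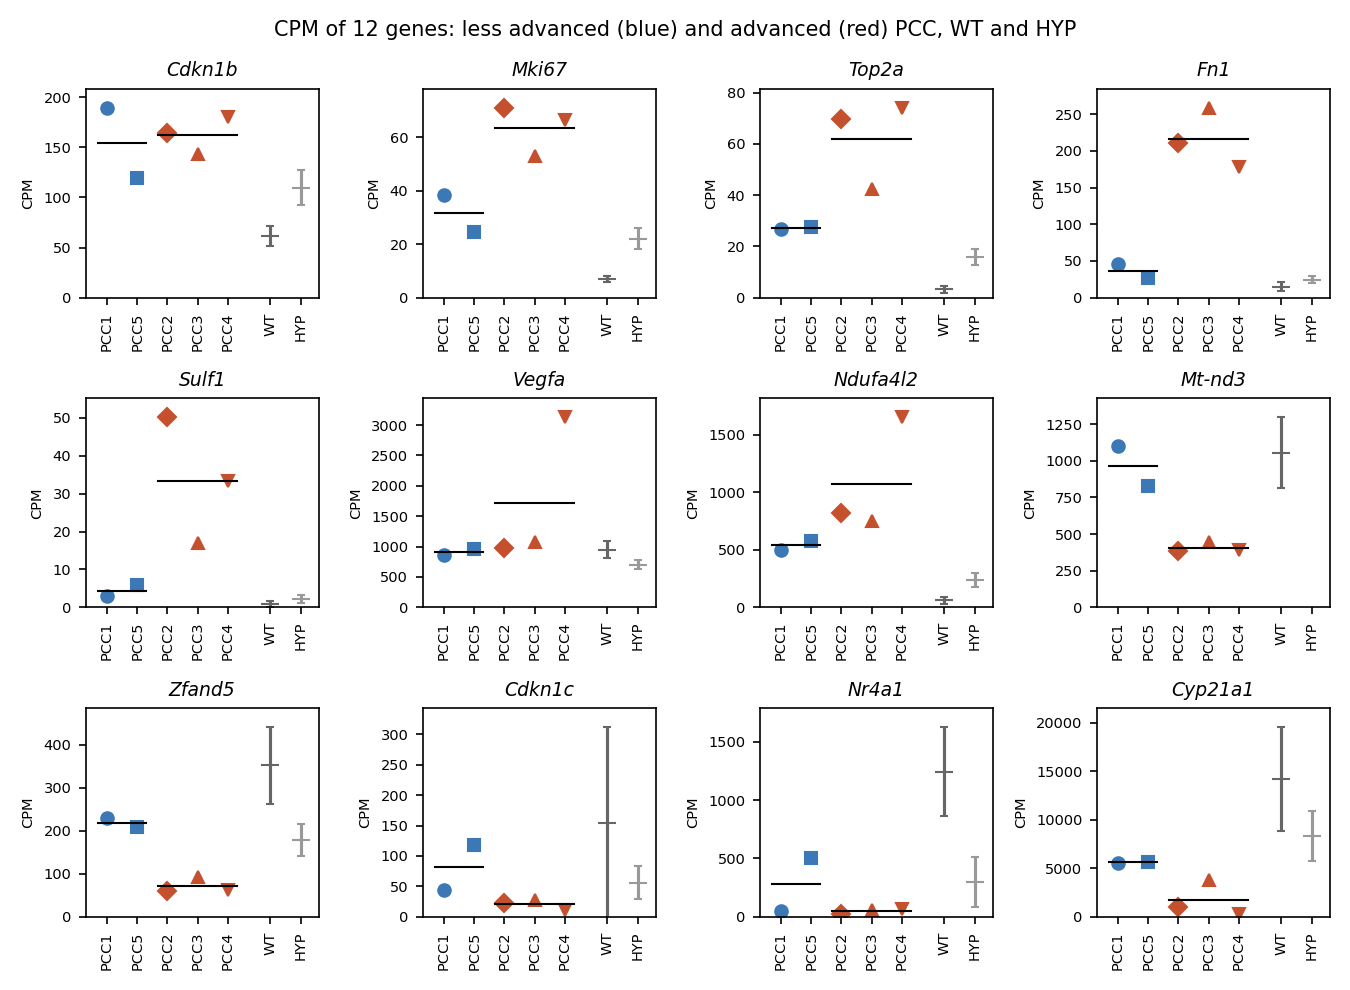
CPM of 12 genes in each tumour, with less advanced PCC in blue, advanced PCC in red and the mean of each stage as a line; WT and HYP are means with SD bars (n = 5 each), and *Mt-nd3* has no HYP value. *Fn1* and *Sulf1* separate the stages, *Vegfa* and *Ndufa4l2* are highest in PCC4, *Nr4a1* in PCC5 among the tumours, and *Cyp21a1* is lowest in PCC2 and PCC4.

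Immediate early genes are switched on within minutes by stimulation or tissue handling. The list that holds them together with stress genes was set apart by 1 tumour, although its most abundant member by FPKM, *Atf4*, overlapped between the stages (-0.38, SE 0.26). Of 16 genes 14 had a lower fitted level in advanced PCC (median -0.88), 5 at an unadjusted *p* under 0.05 (3.84% of all genes), and 1 did not overlap (14.8% of all genes). With the recovered totals 2 were lower at that threshold (median -0.77). With limma on the deposited FPKM it was 0, with 11 of 16 at a lower fitted level and a median of -0.43. The level was 2.18 in PCC5 and 0.554 in PCC1, against 0.376, 0.756 and 0.721 in PCC2, PCC3 and PCC4. *Nr4a1*, an immediate early gene of a nuclear receptor, had 508 CPM in PCC5 and 22.9 to 67.3 CPM in the other 4 tumours (-2.46, SE 0.90). Without PCC5, 12 of 16 genes had a higher fitted level in advanced PCC and the median was 0.21.

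The remaining groups of genes had smaller medians or few members. Of the 20 genes of growth factor receptors and MAPK and PI3K signalling, 15 had a lower fitted level (median -0.18), and of 26 genes of the Wnt pathway 15 (median -0.13). With the deposited FPKM 11 of 20 (0.02) and 14 of 26 (0.05) were higher, and with the recovered totals 9 of 20 and 13 of 26. The Wnt median ranged from -0.39 without PCC3 to 0.05 without PCC5. The medians were 0.16 for 23 genes of axon growth and neural adhesion (0.0034 without PCC2 and 0.33 without PCC4) and 0.15 for 28 voltage-gated channels (0.25 without PCC1 and 0.10 without PCC5). They were 0.08 for 15 angiogenic factors and receptors, 0.23 for 9 genes of DNA methylation and -0.01 for 18 genes of epithelial and mesenchymal transition (-0.25 without PCC2). For 20 genes of the interferon response the median was 0.04, and for 26 genes of the study's qRT-PCR array 0.00. Of its reference genes only *Mtch1* was listed (-0.04, SE 0.37, and 0.12 with the recovered totals). Among cell type markers the medians were 0.12 for 11 chromaffin (0.49 without PCC1 and -0.15 without PCC5), 0.17 for 11 sustentacular and Schwann cell (-0.14 without PCC1 and 0.49 without PCC5), 0.59 for 7 pericyte (0.13 without PCC4 and 0.27 without PCC5), 0.44 for 8 fibroblast (-0.35 without PCC1) and -0.55 for 4 macrophage and leukocyte genes (-0.16 without PCC4). Mast cell, erythroid and adipocyte markers had 1, 1 and 2 genes, too few for a median.

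The stage difference was set beside the step from WT to HYP, which shares no sample with it. Of 3999 genes tested from the authors' list for HYP and WT, 1899 (47.5%) were higher and 1907 (47.7%) lower in HYP at an edgeR adjusted *p* under 0.05; that nearly all passed was set by the list, which holds only genes already called between these samples. Among the called genes that were also tested between the tumour stages, 1283 of 1702 genes higher in HYP (75.4%) had a higher fitted level in advanced PCC, and 1289 of 1608 lower in HYP (80.2%) had a lower one, where 49.7% of all genes tested were higher and 50.3% lower. Their median stage log2 fold changes were 0.27 and -0.34, and the 2 differences correlated across 3462 genes with Pearson's r = 0.551 and Spearman's rho = 0.603, where genes are not independent. With the recovered totals the shares were 89.9 and 67.6%, and those of all genes 65.7 and 34.3%. The cortex level had the same order, 5.39 ± 2.08 in WT and 2.67 ± 0.543 in HYP (SD, n = 5 each), and its part in the shared direction was not tested.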

How the data were processed

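Per the submitters' processing notes, reads were mapped to Rn06 with HISAT2 (2.0.5) and counted per gene with featureCounts (1.5.0-p3). The deposited counts are the authors' whole numbers of reads per gene. The deposited FPKM values were computed by the authors from these counts, gene length and depth. The deposited normalized signal holds the authors' counts after division by size factors from DESeq2. The authors' p-values and log2 fold changes, deposited for each pair of groups, come from DESeq2, and the tables hold only genes that passed it; they were not used as results.

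Counts were joined over both tables, and genes on X and Y left out. Total reads per sample were recovered by relating counts to FPKM and length, using only values of 20 counts or more. Genes with few counts (566) were removed by filterByExpr, and the remaining genes were tested with edgeR 4.0.16 (TMM, quasi-likelihood, Benjamini-Hochberg). DESeq2 1.42.0 and limma 3.58.1 were alternatives, as were other scalings, filters, gene sets and leaving out each tumour. CPM and log2 CPM used the TMM-scaled totals, with 0.5 added for logs. SE is that of the log2 fold change. Of the per-sample columns, 0 were left unmapped.

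Members and gene lists were chosen with earlier results of these data known. Genes were named by rule: *Cdkn1b*, *Mki67* and genes the study followed; the 12 largest differences in each direction among genes with a symbol, at least 1 CPM on average, no overlap of the stages and an unadjusted *p* under 0.01; the 6 of smallest *p* in each direction with at least 10 CPM; and from each list the most abundant member by FPKM and the 3 of smallest *p*. Some genes that the rule names are not reported here. Outside this rule, *Aurka*, *Col6a3*, *E2f1*, *Gipr*, *Igfbp3*, *Ldha*, *Mt-co1*, *Sdha*, *Sdhb* and *Stc2* were named after their values were seen. Which list members were described, the promoter search and the chromosomes were also chosen after the values were seen.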

Additional observations from a re-analysis of the deposited data

Results flagged for a closer look

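Among 5 tumours, a value was singled out where its gap to the next tumour was large against the whole range (Dixon's test with a critical value of 0.71 at the 95% level). For independent, normally distributed values about 5% of such groups are singled out by chance, in either direction. Here CPM and levels were used without logs, some lists share genes, and every tumour singled out was the highest. The 5% is therefore not a valid chance share for these values. Of 30 gene lists, 3 had such a tumour: PCC4 was highest for pseudohypoxia with a level of 1.92 (next 0.911) and for cell cycle inhibitors with 1.19 (next 0.999), and PCC5 for immediate early and stress genes with 2.18 (next 0.756).

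Of 74 single genes named in the text, 10 had such a tumour. Some of them (*Gipr*, *Ldha*, *E2f1* and *Stc2*) had been named after their values were seen, so this number cannot be set against the share given by chance. PCC4 stood above the other tumours for *Vegfa* (3126 CPM), *Ndufa4l2* (1648 CPM), *Ldha* (982 CPM), *Gipr* (332 CPM), *E2f1* (56.9 CPM) and *Stc2* (24.2 CPM). PCC5 did so for *Nr4a1* (508 CPM) and *Vsnl1* (14.3 CPM), and PCC2 for *Epcam* (86.8 CPM) and *Cdh1* (25.3 CPM). Stage means of these genes rest largely on that tumour. No cause was tested.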

How the results depend on the processing

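No paired analysis was possible, because the study took each tumour from a separate animal and the labels name no pairs. In edgeR 0 genes passed an adjusted *p* of 0.05 under TMM (297 higher and 278 lower at an unadjusted *p* under 0.05), against 32 higher and 12 lower in DESeq2. At an unadjusted *p* under 0.05, the recovered totals gave 594 higher and 104 lower, limma on log2(FPKM + 0.5) 566 and 149, limma on log2(FPKM + 0.1) 571 and 137, the genes called between PCC and HYP alone 149 and 149, and a fit with the WT samples 308 and 420.

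With the recovered totals, medians were 0.25 for transcription factors, 0.0740 for cell cycle inhibitors, -0.0726 for oxidative phosphorylation, -0.17 for TCA enzymes, 0.44 for DNA methylation genes, 0.36 for channels and 0.22 for the qRT-PCR array. *Angpt2* (0.0203), *Mtch1* (0.12) and *Th* (0.0305, from -0.23) changed sign. The shares of HYP genes with the same direction became 89.9 and 67.6% (65.7 and 34.3% of all genes), and with at least 10 counts in every sample the share of higher ones was 73.1%. With log2(FPKM + 0.5) and log2(FPKM + 0.1), medians were 0.38 and 0.38 for catecholamine genes, 0.24 and 0.24 for transcription factors, 0.0643 and 0.0617 for inhibitors, -0.0468 and -0.0470 for oxidative phosphorylation, -0.17 and -0.17 for TCA enzymes, 0.39 and 0.43 for DNA methylation genes and 0.28 and 0.28 for the array. With the latter, channels had 0.35 and pericyte markers 0.85. *Mtch1* (0.29 in both) and *Th* (0.0893 in both) changed sign. The median shift over all genes was 0.20 with the recovered totals and 0.19 with log2(FPKM + 0.5), while the cortex marker median went from -1.44 to -1.83 with the latter. Medians of further lists turned from below to above zero: with log2(FPKM + 0.5) granins (0.14), endothelial markers (0.16), growth factor receptors and signalling (0.0247), the Wnt pathway (0.0532) and epithelial and mesenchymal genes (0.0510), and with the recovered totals the Wnt pathway (0.0206), endothelial markers (0.0163) and epithelial and mesenchymal genes (0.19). Genes called between PCC and HYP alone gave -0.43 for angiogenic factors, 0.43 for inhibitors, -0.63 for oxidative phosphorylation, -0.0357 for DNA methylation genes, -0.60 for epithelial and mesenchymal genes, 0.50 for channels and -1.22 for the mitochondrial genome, from fewer genes.

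Leaving out 1 tumour at a time gave 151 to 372 genes higher and 91 to 712 lower at an unadjusted *p* under 0.05. Where 1 less advanced tumour remained, it was assumed to vary like the advanced ones. Medians ranged from -0.0538 to 0.47 for catecholamine genes, -0.83 to 0.70 for granins, -0.17 to 0.10 for inhibitors, -0.35 to 1.08 for fibroblast markers, -0.31 to -0.15 for oxidative phosphorylation, -1.24 to -0.83 for the mitochondrial genome, 0.19 to 0.59 for glycolysis, 0.13 to 0.68 for pericyte markers, 0.10 to 0.63 for exocytosis, -0.0851 to 0.86 for angiogenic factors, -0.44 to -0.20 for TCA enzymes, -0.21 to 0.80 for matrix genes, -1.59 to 0.21 for immediate early and stress genes, -0.17 to 0.37 for interferon genes and -0.65 to 0.64 for endothelial markers. Single genes that changed sign ranged from -0.0436 to 1.91 (*Cd34*), -0.0804 to 0.24 (*Gapdh*), -0.11 to 0.0900 (*Pcna*), -0.74 to 0.61 (*Th*), -0.54 to 0.72 (*Mtch1*), -1.11 to 0.24 (*Angpt2*), -0.19 to 0.44 (*Cdkn1b*), -0.34 to 0.85 (*Slc18a1*) and -3.347 to 0.0924 (*Nr4a1*). Further medians ranged from 0.0034 to 0.33 for axon growth and neural adhesion, 0.10 to 0.25 for channels, -0.39 to 0.0498 for the Wnt pathway and -0.25 to 0.0441 for epithelial and mesenchymal genes. The cause was not tested. *Fn1* stayed between 2.26 and 2.95, and *Top2a* between 1.05 and 1.41.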

Other observations

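Some genes outside the rule for naming, chosen after their values were seen, differed strongly between the advanced tumours themselves. *Gipr*, the receptor of the gut hormone GIP, had 6.04 and 9.60 CPM in PCC1 and PCC5, 54.3 and 26.0 CPM in PCC2 and PCC3, and 332 CPM in PCC4 (log2 fold change 4.13, SE 1.20). *Stc2*, a secreted glycoprotein, had 0.980 ± 0.449 CPM (SD, n = 2) in less advanced PCC and 5.30, 4.11 and 24.2 CPM in PCC2, PCC3 and PCC4 (3.51, SE 0.98), and *Igfbp3*, an IGF-binding protein, 82.3 and 58.0 CPM in PCC1 and PCC5 against 198, 138 and 285 CPM (1.56, SE 0.37). All 3 are among the 44 genes past the threshold in DESeq2. The epithelial adhesion genes *Cdh1* and *Epcam* were highest in PCC2, with 25.3 and 86.8 CPM, against at most 4.26 and 27.7 CPM in the other tumours.

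Gene levels along the chromosomes were looked at after the data were seen. For each tumour, log2 CPM was taken relative to the gene's mean over the 5 tumours. In PCC4 the median was -0.26 over 345 genes of chromosome 8 and -0.34 over 184 genes of chromosome 19, whereas it lay between -0.06 and 0.10 on the other autosomes. On chromosome 8, 74.8% of genes were below their mean in PCC4, and on chromosome 19 81.0%, against 47.3% of 5170 genes elsewhere. In PCC5 the median of chromosome 19 was 0.21, and the remaining autosome medians of all tumours lay between -0.16 (chromosome 18 in PCC5) and 0.17 (chromosome 15 in PCC1). RNA levels do not measure DNA copies, and no DNA was examined here.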
